A study of Homo sapiens with 14 samples.

Results

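The respiratory chain and the ATP synthase are built from subunits of 2 genomes, and 86 of the 62699 genes in the count table encode them: 73 in the nucleus and 13 in mitochondrial DNA. The genes were chosen by name, leaving out pseudogenes and genes with fewer than 100 counts summed over the 14 libraries. Of 155 names that matched, 65 were pseudogenes and 4 had under 100 counts (ATP5MF-PTCD1 29, ATP5MGL 24, UQCRB-AS1 43 and UQCRFS1-DT 69). The nuclear members were 36 genes of complex I, 9 of complex III, 11 of complex IV and 17 of complex V. The mitochondrial members were 7 genes of complex I, 1 of complex III, 3 of complex IV and 2 of complex V. NDUFA4, named for complex I, was counted with complex IV, of which it is a subunit.

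Complex I takes electrons from NADH, complex III passes them from ubiquinol to cytochrome c, and complex IV passes them to oxygen. All 3 pump protons across the inner mitochondrial membrane, and complex V, the ATP synthase, makes ATP as protons flow back. The mitochondrial genes encode the membrane core of these complexes and are transcribed as long precursors by a polymerase of their own, while the nuclear genes are transcribed singly in the nucleus, translated on cytosolic ribosomes and imported. The 2 sets of transcripts are therefore made, processed and degraded in different compartments, although each complex needs products of both. Complex II has no mitochondrially encoded subunit and was used for comparison.

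RNA was sequenced from 4 human cancer cell lines: the triple-negative breast lines MDA-MB-231 and BT-549, the lung adenocarcinoma line NCI-H1395 and the gastric line AGS. Each line had 1 library with a control siRNA and 2 with siRNA against ADAR, the enzyme that converts adenosine to inosine in double-stranded RNA. MDA-MB-231 had 2 further libraries, 1 overexpressing the nucleolar protein NOP14 and 1 with the pcdh vector as control (called PCDH here). No genotype, dose or time, no siRNA sequence and no promoter or clone of the vector lines is given in the sources used here, nor whether the libraries of a group came from separate cultures, so p-values measure only the spread between these libraries.

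Library totals ran from 13338338 to 27828376 counts. Levels are given as CPM, the count of a gene relative to the library's total after edgeR's trimmed mean of M values (TMM) scaling. ADAR was at 298 CPM in the control and 96.3 and 101 CPM after its siRNA in MDA-MB-231, at 797 against 103 and 91.4 in BT-549, at 392 against 41.4 and 46.5 in NCI-H1395 and at 757 against 133 and 181 in AGS. It was lower in 8 of 8 libraries, although its log2 change over the lines, -2.50 ± 0.29, had an adjusted p of 0.0996 by edgeR's quasi-likelihood test. In the MDA-MB-231 and BT-549 libraries ESR1 and PGR stayed at or below 0.726 CPM, while ERBB2 was between 58.2 and 132 CPM. The mesenchymal genes VIM, FN1 and ZEB1 were at 22.6 CPM or more there. The lung markers NKX2-1, NAPSA, SFTPB and EPCAM stayed at or below 0.935 CPM in the NCI-H1395 libraries. KRT7 was at 4.37 to 7.46 CPM in that line and VIM between 1440.2 and 2507 CPM. In AGS, EPCAM was at 314 CPM or more and KRT8 and KRT18 at 1248 or more. The gastric genes CDX1 and CLDN18 were at or below 0.409 CPM there and TFF1 at 1.10 to 2.34. Of genes marking other cell types, the T cell gene CD3E was at 0 in every library, and PTPRC, CD68, VWF and DCN were at or below 1.97 CPM. PECAM1, an endothelial gene, was at 5.88 to 21.5 CPM in MDA-MB-231 and at or below 4.89 elsewhere. PDGFRB, a fibroblast gene, was at 4.65 to 9.63 CPM in MDA-MB-231 and at or below 1.06 elsewhere.

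The 5 MDA-MB-231 libraries did not form a single group for these genes. COX8A was at 13.5 to 19.9 CPM in the 3 siRNA libraries and at 104 and 107 in the 2 vector libraries, MT-ND3 at 138 to 165 against 784 and 800.1, MT-ATP6 at 1439.6 to 2031 against 5595 and 5943, and COX6C at 289 to 433 against 84.8 and 88.8. Between the control siRNA and the PCDH library, 44 of the 85 members measured differed by more than 1.5-fold, against 45.9% of all 15273 genes. The mitochondrial members had a median log2 ratio of -0.93 there, with 12 of 13 lower in the control siRNA library, and the nuclear members one of -0.06. What set the siRNA and vector libraries apart was not tested, and comparisons were made within each set unless stated.

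Transcripts of the mitochondrial genes far outnumbered those of the nuclear genes per unit of length. In CPM per kilobase of transcript, taken as the median over the 14 libraries, the 13 mitochondrial members had a median of 2211 and the 73 nuclear members one of 47.2. The mitochondrial order ran from MT-ATP6, MT-CO1 and MT-CO2 (5559, 5155 and 5126 CPM per kilobase), which encode a proton channel subunit of complex V and the catalytic core of complex IV, down to MT-ATP8 at 483. MT-ATP8 shares 22.2% of its length with MT-ATP6 on the same strand, and the sources used here do not say how reads in that stretch were assigned. The libraries were made from poly(A)-selected RNA, and mitochondrial mRNAs carry short A tails. How well the selection captured them was not tested, so this contrast is one of sequenced fragments.

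Among nuclear members, those of complex IV had the highest median per length, and the place of complex V depended on the length used. The medians were 93.6 and 87.2 CPM per kilobase for complexes IV and V, and 33.5 and 30.7 for complexes I and III. Over the length of all exons of a gene, an alternative chosen after the data were seen, they were 46.6, 24.2, 9.53 and 21.8 in that order, and the nuclear median was 20.3. Single genes are given per length of transcript. These lengths were taken from GENCODE 29, which differs from the annotation that was counted. For some members the transcript is longer than all counted exons, as for NDUFA1 (766 against 421 bases) and UQCRFS1 (3475 against 3086). The length used for NDUFA9 was 8363 bases. How far this shaped the order of the genes was not tested. In complex V the leading transcripts were ATP5F1B, the catalytic beta subunit of the ATP synthase (371), ATP5MF (161) and ATP5F1C, the gamma subunit of its rotating stalk (117). In complex IV they were COX4I1 (313), COX6B1 (182) and COX6C (137). NDUFS5, NDUFB7 and NDUFS8 led complex I at 168, 123 and 111, and UQCRH, UQCRQ and UQCRC1 led complex III at 145, 135 and 87.8. At the other end stood NDUFA7 at 0.65, UQCRHL, a close copy of UQCRH, at 1.42 and NDUFA9 at 1.5 CPM per kilobase. UQCR10, at 23.2, was next to UQCRHL in complex III. The lowest of complex IV were COX7B (44.6) and NDUFA4 (31.2), and of complex V ATP5ME (23.9) and ATP5MG (18.1).

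Shared annotation moved with some of the low values. NDUFV2, NDUFA7, NDUFB8, NDUFA11 and ATP5PO share 64.2% to 82.9% of their transcript with another gene on the same strand, and their median was 12.1 CPM per kilobase, against 59.8 for the 54 nuclear members that share under 20%. The genes they overlap on that strand held 13 counts or fewer each over the 14 libraries. NDUFA7, ATP5PO and NDUFB8 also share 11.7%, 6.79% and 2.53% of their transcript with genes on the other strand, whose counts are not given here. Whether reads in the shared stretches were left uncounted was not tested.

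The first comparison asked what the loss of ADAR did to the 2 sets. After ADAR siRNA, summed transcripts of the nuclear genes were lower than the control of the same line in 7 of 8 libraries. They went from 6087 CPM in the control to 4929.8 and 6459 in MDA-MB-231, from 7926 to 7046 and 6308 in BT-549, from 6647 to 5286 and 5099 in NCI-H1395 and from 4405 to 3664 and 3682 in AGS. The second MDA-MB-231 library was the exception, at 106.1% of its control. The other 7 stood at 76.7% to 88.9% of theirs.

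The mitochondrial sum did not follow the nuclear one. It went from 24785 CPM to 28706 and 31498 in MDA-MB-231, from 48288 to 50110 and 47424 in BT-549, from 33690 to 28311 and 34209 in NCI-H1395 and from 29881 to 43564 and 31285 in AGS. It was above the control in 6 of 8 libraries, and in 7 of 8 when library totals took the place of TMM. The amount of mitochondrial per nuclear transcript was higher than in the line's own control in all 8 ADAR siRNA libraries, with 4.07 against 5.82 and 4.88 in MDA-MB-231, 6.09 against 7.11 and 7.52 in BT-549, 5.07 against 5.36 and 6.71 in NCI-H1395 and 6.78 against 11.9 and 8.50 in AGS. Since both ADAR siRNA libraries of a line were set against the same control, these are 4 independent comparisons and not 8, and a single control library has no measured spread. In bulk RNA of a culture, less of a transcript in every cell and fewer cells making it cannot be told apart.

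The same ratio was higher in all 8 libraries when each complex was taken alone. The smallest difference was in complex V of NCI-H1395, where the first ADAR siRNA library and its control both stood at 1.54 after rounding. The first AGS library showed the largest ratios of that line. There, mitochondrial per nuclear transcript went from 10.8 to 18.8 for complex I, from 3.43 to 7.22 for complex III, from 13.3 to 24.4 for complex IV and from 1.67 to 2.76 for complex V.

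**Figure D1:**
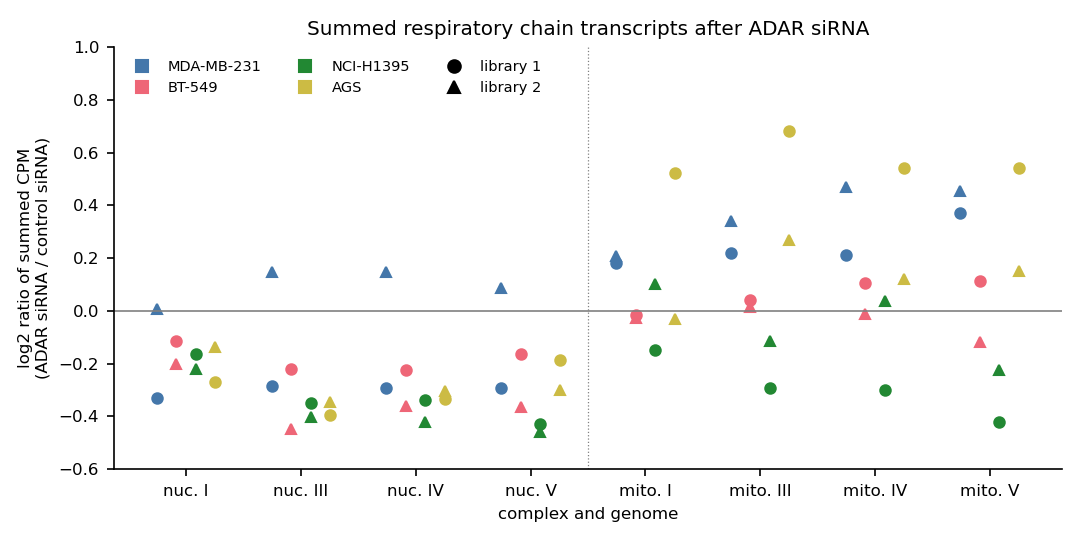
Log2 ratio of summed CPM, ADAR siRNA against control siRNA, for the nuclear and mitochondrial genes of each complex (x axis), with the line as colour and the 2 ADAR siRNA libraries as circle and triangle. Most nuclear points lie below 0, with the second MDA-MB-231 library between 100.4% and 110.8% of its control for the 4 complexes, and the mitochondrial points are spread on both sides of 0.

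Gene by gene, no member passed the test over the 4 lines. edgeR's quasi-likelihood test, with the 2 ADAR siRNA libraries of each line summed and line as a term, called 0 of the 86 members at an adjusted p of 0.05, and 4 of all 21944 genes tested (0.0182%). At an unadjusted p under 0.05 there were 23 members, 21 of them lower and 2 higher (26.7% of the members), against 2523 of all genes (11.5%), of which 1114 were lower and 1409 higher. Of the nuclear members, 68 of 73 were lower (93.2%), with a median log2 change of -0.17, where 42.7% of all genes were lower and their median was 0.06. All 13 mitochondrial members were higher (12 with median-ratio scaling), by 0.03 to 0.22 with a median of 0.12. DESeq2, run as an alternative on the same 8 columns, called 16 of the 78 members to which it gave an adjusted p, all nuclear and lower, against 7.36% of 9606 genes, 578 of them lower and 129 higher.

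Nuclear members of every complex were on the lower side, and complexes III, IV and V more evenly than complex I. All 9 genes of complex III, all 11 of complex IV and all 17 of complex V were lower, with median log2 changes of -0.26, -0.29 and -0.20. In complex I, 31 of 36 were lower with a median of -0.14. Of the 73 nuclear members, 18 (24.7%) were lower than the line's control in each of the 8 ADAR siRNA libraries. Of the 13476 genes with a mean of at least 2 CPM, 4.73% were. That minimum was not applied to the members, and NDUFA7, at 0.17 to 1.37 CPM, lay below it. No nuclear member was higher in all 8. The 18 were NDUFB1, NDUFB10, NDUFB11, NDUFS3 and NDUFS5 of complex I, UQCR10, UQCR11 and UQCRH of complex III, COX5A, COX5B, COX6B1, COX7A2, COX8A and NDUFA4 of complex IV, and ATP5F1A, ATP5MC1, ATP5ME and ATP5MJ of complex V. No mitochondrial member was lower in all 8.

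**Figure D2:**
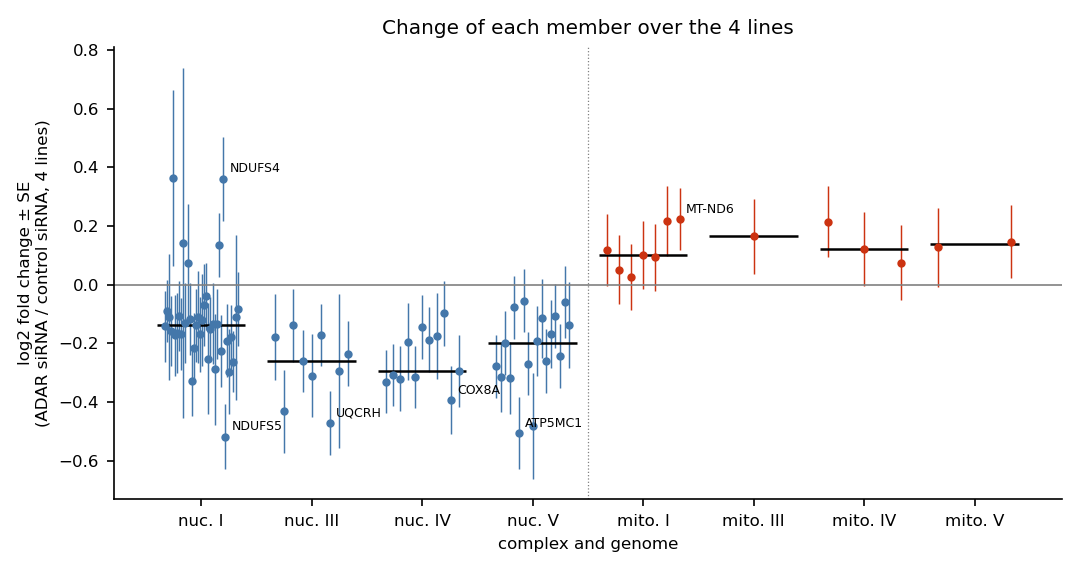
Log2 change of each member after ADAR siRNA over the 4 lines (points, with the standard error of the fit), grouped on the x axis by complex and genome, with black bars at the group medians. The nuclear groups have medians from -0.29 to -0.14 and the mitochondrial genes all lie above 0, and no member had an adjusted p under 0.05.

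In complex I the smallest p belonged to NDUFS5 (ENSG00000168653.11, hg38 chr1:39026318-39034636, plus strand), an accessory subunit on the side of the complex that faces the intermembrane space. It went from 221 CPM to 145 and 191 in MDA-MB-231, from 112 to 97.8 and 72.8 in BT-549, from 76.3 to 55.6 and 41.5 in NCI-H1395 and from 85.7 to 57.9 and 45.5 in AGS. It was lower in all 8 libraries, although the lines themselves overlapped. The log2 change was -0.52 ± 0.11 (standard error of the fit), with an unadjusted p of 0.000281 and an adjusted p of 0.103 by edgeR's quasi-likelihood test. By DESeq2 it fell, at -0.55 with an adjusted p of 0.000109.

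NDUFB10, an accessory subunit of the membrane arm, was at 87.0 CPM in the MDA-MB-231 control and at 61.9 and 86.7 after ADAR siRNA, with 65.1 against 57.7 and 42.4 in BT-549, 57.1 against 43.5 and 31.2 in NCI-H1395 and 36.6 against 32.7 and 31.1 in AGS. Its log2 change was -0.33 ± 0.12 (unadjusted p 0.0153). NDUFV1, which carries the flavin that accepts electrons from NADH, was at -0.26 ± 0.10 (unadjusted p 0.0235). Its second AGS library, at 119.5 CPM, was above the control of 117.

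Of the 5 complex I genes on the higher side, NDUFS4 (ENSG00000164258.12, hg38 chr5:53560633-53683338, plus strand) alone had an unadjusted p under 0.05. NDUFS4 encodes a subunit of the arm that oxidises NADH. It stood at 95.1 CPM against 98.8 and 116 in MDA-MB-231, at 29.9 against 29.4 and 33.5 in BT-549, at 17.9 against 21.7 and 20.9 in NCI-H1395 and at 15.9 against 34.5 and 23.7 in AGS. The log2 change was 0.36 ± 0.14, with an unadjusted p of 0.0235 and an adjusted p of 0.344, and the AGS libraries differed most. NDUFA13 was at 0.36 ± 0.30, with an unadjusted p of 0.246.

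Complex III was led by UQCRH (ENSG00000173660.12, hg38 chr1:46303698-46316776, plus strand), the hinge protein beside cytochrome c1. It went from 89.5 CPM to 62.4 and 73.3 in MDA-MB-231, from 183 to 158 and 131 in BT-549, from 117 to 78.8 and 77.6 in NCI-H1395 and from 86.0 to 49.0 and 61.7 in AGS. It too was lower in each of the 8 libraries, with a log2 change of -0.47 ± 0.11, an unadjusted p of 0.000558 and an adjusted p of 0.154. UQCR11 (ENSG00000127540.12, hg38 chr19:1597169-1605473, minus strand), a small accessory subunit, went from 17.05 CPM to 10.6 and 12.1, from 44.7 to 32.7 and 27.1, from 27.4 to 22.1 and 19.9 and from 23.8 to 21.8 and 18.0 in the same order of lines, a log2 change of -0.43 ± 0.14 (unadjusted p 0.00819, adjusted p 0.258). Both fell by DESeq2, with adjusted p values of 0.000113 and 0.00705. UQCRC1 and UQCRC2, the large core proteins, were at -0.26 ± 0.11 and -0.31 ± 0.14.

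Complex IV was led by COX8A (ENSG00000176340.4, hg38 chr11:63974620-63976543, plus strand), the ubiquitous form of its smallest subunit. It went from 19.9 CPM to 13.5 and 17.7 in MDA-MB-231, from 159 to 143 and 123 in BT-549, from 81.3 to 68.1 and 55.4 in NCI-H1395 and from 49.1 to 24.3 and 37.1 in AGS. The lines lay further apart than treated and control libraries of a line. The log2 change was -0.39 ± 0.12, with an unadjusted p of 0.00395 and an adjusted p of 0.220. COX4I1, the regulatory subunit that binds ATP, was at -0.33 ± 0.11 and COX6B1, at the interface of the dimer, at -0.32 ± 0.11, with unadjusted p values of 0.00732 and 0.00888. COX4I1 went from 297 CPM to 234 and 298.5 in MDA-MB-231, so that its second library did not follow, from 235 to 192 and 163 in BT-549, from 345 to 265 and 234 in NCI-H1395 and from 215 to 169 and 159.8 in AGS.

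Complex V was led by ATP5MC1 (ENSG00000159199.14, hg38 chr17:48892765-48895871, plus strand), 1 of 3 genes for the same mature c subunit that forms the proton-driven ring. It went from 42.1 CPM to 23.7 and 34.8 in MDA-MB-231, from 105 to 99.2 and 78.5 in BT-549, from 105 to 67.9 and 77.2 in NCI-H1395 and from 23.0 to 9.65 and 16.3 in AGS. All 8 libraries were below their control, with a log2 change of -0.51 ± 0.12, an unadjusted p of 0.0009 and an adjusted p of 0.167. By DESeq2 it fell, at -0.54 with an adjusted p of 0.00388. ATP5F1B was at -0.32 ± 0.12 and ATP5ME, the e subunit of the membrane part, at -0.48 ± 0.18, with unadjusted p values of 0.0165 and 0.0175. ATP5F1B went from 358 CPM to 302 and 403, from 1002 to 887 and 660.5, from 1063 to 725 and 703 and from 599 to 500.2 and 434 in the order above, with the second MDA-MB-231 library again above its control.

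The promoters of the leading nuclear genes are shown because nuclear respiratory genes are known for sites of NRF1 and of the ETS protein GABP, and because these genes stood lower together. Of the 73 nuclear members, 60 have a promoter in the RefSeq table (GRCh38.p14), and NDUFS5 is among the 13 without one. Each line gives 250 bases before the transcript start and the first 30 after it, 5′ to 3′ on the gene's strand. Capitals mark matches, on either strand, to the ETS motif CCGGAAG and to the NRF1 motif of 10 bases with the fifth base free, and no match overlaps another.
UQCRH, chr1:46303448-46303727, plus strand: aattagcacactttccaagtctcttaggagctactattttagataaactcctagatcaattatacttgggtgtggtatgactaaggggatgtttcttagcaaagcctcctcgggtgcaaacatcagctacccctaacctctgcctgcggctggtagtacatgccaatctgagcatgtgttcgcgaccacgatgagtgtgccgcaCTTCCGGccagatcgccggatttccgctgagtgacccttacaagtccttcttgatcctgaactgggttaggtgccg
UQCR11, chr19:1605433-1605712, minus strand: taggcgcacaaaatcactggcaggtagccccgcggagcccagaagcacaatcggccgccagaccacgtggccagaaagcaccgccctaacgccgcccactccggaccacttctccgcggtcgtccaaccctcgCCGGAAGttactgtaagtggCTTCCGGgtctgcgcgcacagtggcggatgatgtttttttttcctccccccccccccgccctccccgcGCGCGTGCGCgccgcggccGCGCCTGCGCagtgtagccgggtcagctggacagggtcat
COX8A, chr11:63974370-63974649, plus strand: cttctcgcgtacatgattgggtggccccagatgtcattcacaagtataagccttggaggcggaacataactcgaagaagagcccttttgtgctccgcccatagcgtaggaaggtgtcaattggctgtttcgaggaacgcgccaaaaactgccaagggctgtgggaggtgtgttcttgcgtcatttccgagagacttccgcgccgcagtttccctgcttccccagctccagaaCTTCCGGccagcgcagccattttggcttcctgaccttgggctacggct
ATP5MC1, chr17:48892537-48892816, plus strand: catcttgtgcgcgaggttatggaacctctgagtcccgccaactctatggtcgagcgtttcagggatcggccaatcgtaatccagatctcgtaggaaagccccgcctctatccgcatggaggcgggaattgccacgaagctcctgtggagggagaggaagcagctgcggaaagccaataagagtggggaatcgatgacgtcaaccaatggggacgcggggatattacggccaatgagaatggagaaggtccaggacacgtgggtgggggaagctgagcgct

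UQCRH has its ETS match 46 bases before the start and COX8A 18 bases before it. UQCR11 has ETS matches 117 and 97 bases before the start and NRF1 matches 29 and 10 bases before it, and the ATP5MC1 window holds none of these letters. Over the 60 windows of 300 bases (250 before the start and 50 from it), 18 held the ETS motif (30%, against 10.26% of 35116 promoters of the same length) and 14 the NRF1 motif (23.33% against 5.78%). A YY1 motif of 10 bases was in 6 (10% against 1.2%), and the SP1 motif GGGCGG in 38 (63.33% against 44.95%). The comparison set was all promoters, not matched to the members for expression, gene type or number of promoters per gene. Whether the higher shares are particular to respiratory genes was therefore not tested. NRF1 matches were in 4 of 7 windows of complex III, 6 of 31 of complex I, 4 of 13 of complex V and 0 of 9 of complex IV. ETS matches were in 5 of the 9 complex IV windows. A match describes the sequence and not binding of a factor.

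The mitochondrial members were higher over the 4 lines by amounts that depended on which lines were included. Their median log2 change of 0.12 was 0.05 without MDA-MB-231, 0.06 without AGS, where 10 of 13 were higher, and 0.24 without NCI-H1395. MT-ND6 (ENSG00000198695.2, chrM:14149-14673) is the only member encoded on the minus strand of the mitochondrial genome. It went from 824 CPM to 1038 and 979 in MDA-MB-231, from 893 to 911 and 1145 in BT-549, from 381 to 366 and 520.4 in NCI-H1395 and from 962 to 1164 and 947 in AGS. It was higher in 6 of 8 libraries, and its log2 change of 0.22 ± 0.11 was the only mitochondrial one with an unadjusted p under 0.05 (0.0495, adjusted 0.434). DESeq2 gave it an adjusted p of 0.0588.

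MT-CO1, the catalytic subunit of complex IV, went from 5532 CPM to 6508 and 7929.5 in MDA-MB-231, from 10343 to 11228 and 11102 in BT-549, from 7120.3 to 6067 and 7968 in NCI-H1395 and from 5618 to 7992 and 6209 in AGS. It was higher in 7 of 8 libraries, at 0.22 ± 0.12 (unadjusted p 0.0937). MT-CYB, the only mitochondrially encoded subunit of complex III, went from 1637 CPM to 1903 and 2071.5, from 4345 to 4469 and 4392, from 2709 to 2209 and 2505 and from 2099 to 3365 and 2525 in the same order, so that NCI-H1395 went the other way. Its log2 change was 0.16 ± 0.13. MT-ND5, the largest complex I subunit of this genome, was at 0.22 ± 0.12 and MT-ATP8 and MT-ATP6 were at 0.15 ± 0.12 and 0.13 ± 0.14. The remaining members MT-CO2, MT-ND1, MT-ND4, MT-ND4L, MT-CO3, MT-ND2 and MT-ND3 ran from 0.12 down to 0.03. MT-RNR1 and MT-RNR2, the rRNAs read from the same genome, were at -0.03 and 0.14.

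**Figure D3:**
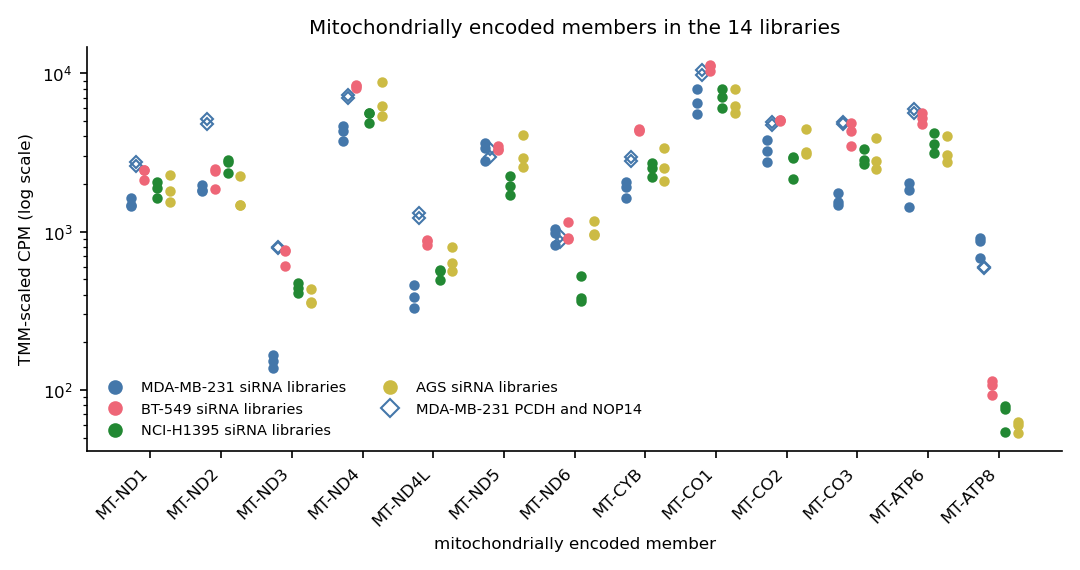
TMM-scaled CPM (log axis) of the 13 mitochondrial members in the 14 libraries, with filled symbols for the siRNA libraries by line and open diamonds for the 2 MDA-MB-231 vector libraries. MT-ATP8 stands between 589 and 916 CPM in the 5 MDA-MB-231 libraries and between 53.7 and 114 elsewhere, and MT-ATP6 and MT-ND3 separate the MDA-MB-231 siRNA libraries from the vector libraries.

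Other gene lists of the organelle were partly on the lower side as well, and so were ribosomal protein genes, whose products are not part of the respiratory chain. Of 80 cytosolic ribosomal protein genes, 78 were lower, with a median log2 change of -0.29, and 59 had an unadjusted p under 0.05, all lower. Of the 78 of them at 2 CPM or more, 46 were lower in each of the 8 libraries (59.0%), a larger share than of the nuclear respiratory genes. Of 76 mitochondrial ribosomal protein genes, 66 were lower with a median of -0.16. Of 13 Krebs cycle genes 11 were lower (-0.23), and of 17 glycolysis genes 14 (-0.14). What part a process shared by these lists had in the values of the respiratory genes was not tested.

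Complex II and the factors that build the complexes were nearer to 0. SDHA, SDHB, SDHC and SDHD, the 4 subunits of complex II, were at 0.09, -0.04, 0.00 and -0.17. Of the assembly factors, 13 of 18 for complex I were lower (median -0.06), 5 of 9 for complex III (-0.04), 19 of 24 for complex IV (-0.12) and 4 of 5 for complex V (-0.12). Of these assembly factors 1 gene on each side had an unadjusted p under 0.05, and the higher one was UQCC1, an assembly factor for complex III (0.31, unadjusted p 0.0498). All 5 subunits not covered by the naming rule were lower (median -0.22), among them CYC1, cytochrome c1 of complex III, at -0.38 ± 0.10 (unadjusted p 0.00253).

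Genes for the expression of mitochondrial DNA had 19 of 30 members lower, with a median of -0.09. TFAM, which packages the genome and starts its transcription, was at -0.18 and LRPPRC, which stabilises its mRNAs, at -0.12. PNPT1, a ribonuclease of the organelle, was at -0.39 ± 0.11 (unadjusted p 0.00324). Of 9 regulators of respiratory genes, ESRRA was at -0.27 (unadjusted p 0.0494), NRF1 at -0.09 and GABPA at 0.08. No gene of any of the 15 lists had an adjusted p under 0.05 by edgeR's quasi-likelihood test.

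Within single lines, edgeR's quasi-likelihood test called 0 members in each, and DESeq2 also called 0. These tests set 2 ADAR siRNA libraries against 1 control, and the spread of the control was taken to equal that seen within the pairs. Of the 23959 genes tested, 0.0751% were called in MDA-MB-231 and 0.00417% in each of the other 3 lines. Members with an unadjusted p under 0.05 numbered 2 for MDA-MB-231, 0 for BT-549, 4 for NCI-H1395 and 6 for AGS. Over all genes the counts were 1161, 742, 1270 and 1193 in that order.

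The nuclear members were on the lower side in every line. In BT-549, 66 of 73 were lower (median log2 change -0.21), in NCI-H1395 64 (-0.25), in AGS 62 (-0.22) and in MDA-MB-231 53 (-0.14), where the medians of all genes lay between 0.00 and 0.02. Complex IV had the lowest nuclear median in NCI-H1395 (-0.38) and AGS (-0.32), complex III in BT-549 (-0.34) and complex I in MDA-MB-231 (-0.18). The MDA-MB-231 value rested on 1 library. In the first ADAR siRNA library 61 nuclear members (83.6%) were below the control, where 59.4% of 13476 genes were, and in the second 37 (50.7%), where 51.4% of all genes were.

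The mitochondrial members differed more by line. They were higher in 13 of 13 cases in AGS (median 0.34) and in 12 of 13 in MDA-MB-231 (0.29), while 7 of 13 were higher in BT-549 (0.00) and 3 of 13 in NCI-H1395 (-0.09). Libraries of a line differed here too. In AGS, 13 of 13 were above the control in the first library (median 0.53) and 9 of 13 in the second (0.14). In NCI-H1395, 12 of 13 were below the control in the first library (-0.23) and 6 of 13 in the second (0.01). The difference between lines was not found gene by gene, by a test with little power. On simulated data it recovered 0% of genes changed 2-fold and 28% of those changed 4-fold. An absence of calls by that test does not show that the lines changed alike. The test of whether the ADAR siRNA change depended on the line called 0 members, against 0.0292% of all genes, and 0 members had an unadjusted p under 0.05. The smallest were COX7B at 0.128, NDUFA9 at 0.131, MT-ATP6 at 0.17, UQCRC2 at 0.221 and MT-CYB at 0.268.

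In NCI-H1395 the members with the smallest p were NDUFS5 at -0.65 ± 0.29, UQCRH at -0.59, ATP5F1B at -0.58 and ATP5F1A, the alpha subunit of the catalytic head, at -0.54, followed by UQCRC2 at -0.62. In AGS they were NDUFS4 at 0.87 ± 0.32, NDUFS5 at -0.73 ± 0.29, ATP5MC1 at -0.82 ± 0.33, UQCRH at -0.64 and COX8A at -0.68. NDUFS5 and UQCRH were near the head of both lists. In MDA-MB-231 they were NDUFA4 at -0.68 ± 0.29, NDUFA9 at 0.88 ± 0.39, NDUFA8 at -0.58, UQCR11 at -0.58 and ATP5MF at -0.53. In BT-549 they were UQCR11 at -0.58 ± 0.32, UQCRC2 at -0.53, COX7B at -0.45, ATP5ME at -0.68 and COX4I1 at -0.41. The adjusted p values of these genes were all 0.895 or higher.

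Between lines the members differed far more than after ADAR siRNA. The test of line called 80 of 86 members, as it did 83.7% of all genes, so the share is near that of genes in general. The 6 not called were ATP5PD, COX6A1, ATP5F1C, NDUFB3, UQCRHL and NDUFA7. The median ratio of the highest to the lowest line mean was 2.40. It was largest for MT-ATP8 (14), COX8A (8.31), NDUFB7 (7.62), COX6C (7.05) and ATP5MC1 (5.78) and smallest for ATP5F1C (1.31).

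BT-549 stood highest and AGS lowest for the nuclear genes. Over its 3 siRNA libraries BT-549 had a nuclear sum of 7093 ± 810 CPM (SD, n = 3, of which 1 control and 2 ADAR siRNA), MDA-MB-231 5825.5 ± 798, NCI-H1395 5677 ± 845 and AGS 3917 ± 423. The AGS libraries lay below all others, whereas the libraries of the other 3 lines overlapped. Of the mitochondrial genes BT-549 again had the largest sum over the siRNA libraries, 48607 ± 1371 CPM. It lay above every siRNA library of AGS (34910 ± 7527), NCI-H1395 (32070 ± 3266) and MDA-MB-231 (28330 ± 3372), whose libraries overlapped. The MDA-MB-231 vector libraries did not follow this order. Their mitochondrial sums lay above every BT-549 library for PCDH and within the BT-549 range for NOP14.

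Each line was then set against the mean of the other 3. The columns of a line were its control and its summed ADAR siRNA libraries. The p-values and standard errors therefore do not measure the spread between cultures of a line under the same treatment. In BT-549, 56 members were higher and 6 lower with an adjusted p under 0.05 by edgeR's quasi-likelihood test, against 28.1% and 22.2% of all genes, and the median log2 difference was 0.58 for nuclear and 0.74 for mitochondrial members. In AGS, 4 were higher and 44 lower, against 28.2% and 25.6% of all genes, with medians of -0.45 and -0.03. AGS was lower in each nuclear complex, with medians from -0.54 in complex IV to -0.43 in complex I. Mitochondrial ribosomal protein genes were low in AGS too, with 43 of 76 called lower and a median of -0.52.

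MDA-MB-231 and NCI-H1395 were divided. In MDA-MB-231, 24 members were higher and 31 lower, against 32.2% and 24.0% of all genes, and its nuclear complex III median was -0.40 where complexes I and IV were at -0.02 and 0.07. In NCI-H1395, 20 were higher and 19 lower, against 28.8% and 17.9% of all genes, and its nuclear medians ran from -0.04 in complexes I and III to 0.19 in complex IV. The nuclear complex IV sum was largest in MDA-MB-231, at 1489 ± 226 CPM, followed by BT-549 (1183 ± 151), NCI-H1395 (1134 ± 182) and AGS (732 ± 97.0), and the libraries of the first 3 overlapped. Complex V was largest in BT-549, at 2716 ± 341 CPM.

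**Figure D4:**
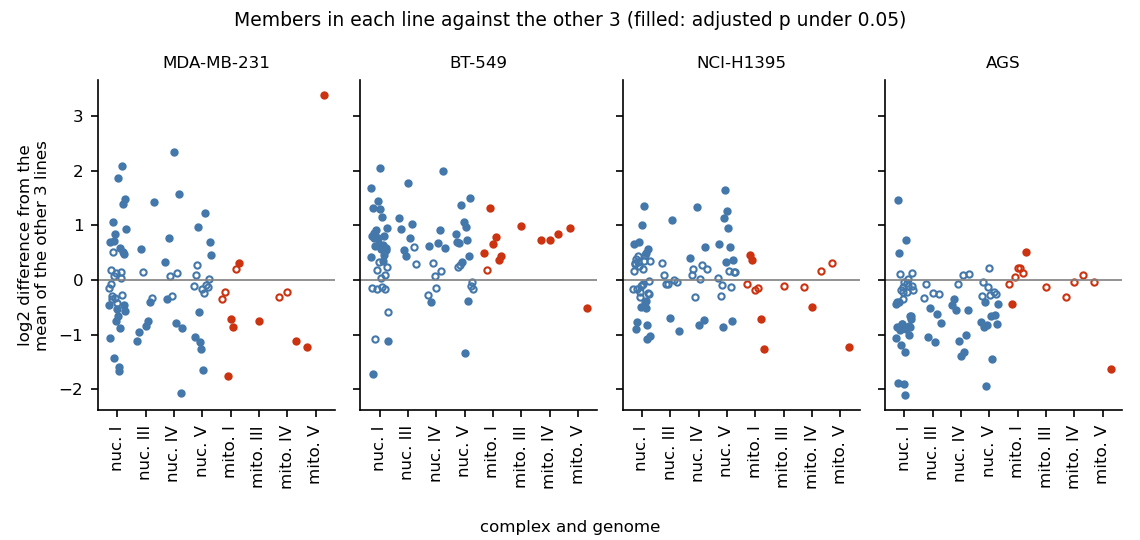
Log2 difference of each member from the mean of the other 3 lines, 1 panel per line, by complex on the x axis, with nuclear genes in blue and mitochondrial genes in red and filled points for an adjusted p under 0.05. BT-549 lies mostly above 0 (56 members called higher) and AGS mostly below it (44 called lower).

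Individual subunits marked each line. Higher in MDA-MB-231 were MT-ATP8 by 3.39 ± 0.13 on the log2 scale (adjusted p 1.71e-11, edgeR's quasi-likelihood test), COX6C by 2.34 ± 0.11, NDUFS4 by 2.09 ± 0.15 and NDUFB7 by 1.86 ± 0.12, while COX8A fell below the other lines by 2.07 ± 0.15. BT-549 was higher in COX8A by 2.0 ± 0.12, NDUFB6 by 2.05 ± 0.15, NDUFA1 by 1.68, ATP5PB, of the stator stalk, by 1.5 and UQCRC2 by 1.79. The mean of the other lines held the MDA-MB-231 siRNA libraries, where each of these genes stood lower than in the vector libraries. NDUFB6 was at 18.4 to 23.2 CPM in the MDA-MB-231 siRNA libraries against 54.0 and 60.4 in the vector libraries. NCI-H1395 was higher in ATP5MC2, another gene of the c subunit, by 1.64 ± 0.11 and in COX6B1 by 1.34, NDUFB9 by 1.35 and UQCRFS1, the iron-sulfur protein of complex III, by 1.1, with MT-ND6 at -1.26. Libraries of NCI-H1395 and BT-549 overlapped for NDUFB9 (98.8 to 112 against 79.0 to 101 CPM) and UQCRFS1 (227 to 279 against 179 to 233 CPM). AGS was lower in NDUFB7 (-2.11 ± 0.15), ATP5MC1 (-1.94 ± 0.16), NDUFA2 (-1.89), ATP5MJ (-1.45) and MT-ATP8 (-1.64). For MT-ATP8 the AGS libraries (53.7 to 62.6 CPM) overlapped those of NCI-H1395 (53.9 to 78.6 CPM). The mean of the other lines held MDA-MB-231, at 682 to 916 CPM.

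COX8A had line means of 17.0 ± 3.25 CPM in MDA-MB-231, 142 ± 17.8 for BT-549, 68.3 ± 12.95 for NCI-H1395 and 36.8 ± 12.4 for AGS. COX6C, another small subunit of complex IV, was highest where COX8A was lowest, with 365 ± 72.7, 99.3 ± 3.48, 68.7 ± 11.5 and 51.7 ± 4.64 CPM in the same order of lines. NDUFB7 was at 150 ± 33.4 in MDA-MB-231 and at 19.6 ± 7.2 in AGS. The MDA-MB-231 levels of COX8A and COX6C held for the siRNA libraries only.

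With the vector libraries in place of the siRNA libraries for MDA-MB-231, an alternative chosen after the data were seen, 49 members were called for that line, against 51.3% of 20736 genes. Of the 55 called with the siRNA libraries, 19 were called in the same direction and 11 in the opposite one. The matching shares over all genes are not reported here, so the reversals cannot be read as particular to the members. MT-ATP6 went from -1.23 to 0.56, MT-CO3 from -1.11 to 0.55, MT-ND3 from -1.75 to 0.65 and MT-ND4L from -0.86 to 0.89. Among the genes named above as marks of MDA-MB-231, MT-ATP8 stood at 3.02 with the vector libraries and NDUFS4 at 1.03. NDUFB7 was at 0.82, COX6C at 0.16 and COX8A at 0.29. In the same refit 58 members were called for AGS, 55 for NCI-H1395 and 62 for BT-549, against 62.5%, 55.8% and 58.9% of all genes. Without MDA-MB-231, also an alternative chosen after the data were seen, the test of line called 74 members, against 76.2% of 20162 genes.

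MT-ATP8 (ENSG00000228253.1, chrM:8366-8572, plus strand) was high in both kinds of MDA-MB-231 library. It stood at 589 to 916 CPM in these 5 and at 53.7 to 114 in the other 9, which was 1.17% to 3.19% of all mitochondrial member counts against 0.14% to 0.23%. MT-ATP6 (ENSG00000198899.2, chrM:8527-9207), which overlaps it, did not share the pattern, since it was low in the MDA-MB-231 siRNA libraries and high in the vector libraries.

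The NOP14 comparison set 1 library against 1 in MDA-MB-231, without replicates and therefore without a test, and it shares its PCDH control with the siRNA against vector values above. NOP14 itself was at 129 CPM in PCDH and 852 with overexpression. None of the 85 members measured differed by more than 1.5-fold, against 2.95% of 14201 genes. Ratios are given with exact 95% intervals, which cover counting error only.

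The small differences divided the 2 genomes. The nuclear sum went from 5727 CPM in PCDH to 6004 with NOP14 (104.8%) and the mitochondrial sum from 51385 to 48396 (94.2%). By complex, the nuclear sums were at 104.9% (complex I), 104.5% (III), 108.1% (IV) and 103.55% (V) of PCDH and the mitochondrial ones at 93.8%, 95.6%, 94.2% and 94.5%. Of 72 nuclear members, 58 were higher with a median log2 ratio of 0.08, and of 13 mitochondrial members 12 were lower with a median of -0.08, where all genes had a median of 0.00. In complex IV all 11 nuclear genes were higher. Of the cytosolic ribosomal protein genes, 73 of 79 were higher, with a median of 0.09, and the mitochondrial rRNAs were at 91.5% of PCDH.

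**Figure D5:**
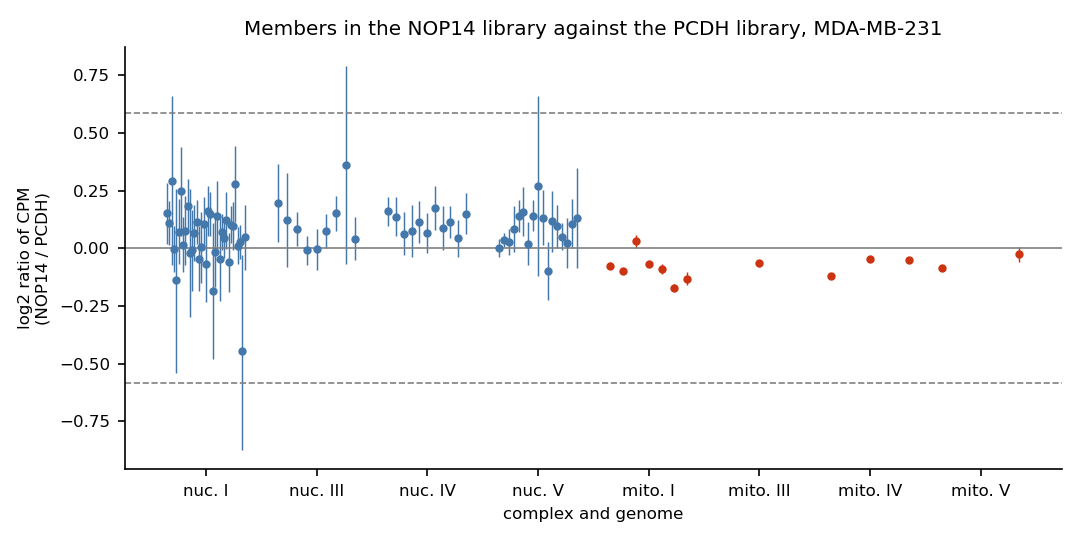
Log2 ratio of CPM, NOP14 overexpression against PCDH, for each member in MDA-MB-231 (1 library each), with 95% counting intervals and dashed lines at a 1.5-fold difference. All members lie between the dashed lines, with 58 of 72 nuclear members above 0 and 12 of 13 mitochondrial members below it.

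The counting interval excluded a ratio of 1 for 24 nuclear members on the higher side and 1 on the lower side, and for 11 mitochondrial members on the lower side and 1 on the higher side. Of 14201 genes it did so for 9.85% on the higher and 7.84% on the lower side, and the interval narrows with the count of a gene, which is high for the mitochondrial members. The largest nuclear ratios at 5 CPM or more were those of NDUFA11 at 1.225 (0.95 to 1.58), NDUFS7, which carries an iron-sulfur cluster of complex I, at 1.21 (1.08 to 1.36), ATP5ME at 1.2 (0.92 to 1.58) and NDUFA3 at 1.19 (1.04 to 1.35). UQCR10 and NDUFA8 were at 1.14, COX7A2 at 1.13 and NDUFB6 at 1.12. The lowest at 5 CPM or more were NDUFB8 at 0.88 (0.72 to 1.08), MT-ND5 at 0.89 (0.88 to 0.90), MT-ND6 at 0.91, MT-CO1 at 0.92, MT-ND2 at 0.93 and ATP5MG, MT-ND4L and MT-ATP6 at 0.94. The 1 nuclear member whose interval lay below 1 was NDUFV2, a subunit of the NADH-oxidising module, at 0.73 (0.55 to 0.98, from 79 counts against 123). It is below 5 CPM and is named after its value was seen. Of the genes with small p after ADAR siRNA, NDUFS5 was at 101 CPM in PCDH and 108 with NOP14, UQCRH at 111 and 124, COX8A at 104 and 107, ATP5MC1 at 56.9 and 63.5 and NDUFS4 at 42.9 and 41.2. With a single library on each side, counting error is the only error known, and it does not cover differences between cultures.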

How the data were processed

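RNA from 14 libraries of 4 cell lines was counted per gene. The deposited values are raw counts per gene, made by the authors from reads on hg38, and the tools listed are featureCounts 2.0.6, STAR 2.7.11a and fastp 0.23.4, per the submitters' processing notes. RNA was poly(A)-selected and reverse transcribed with random hexamers, per the labels' protocols, and the strand and overlap settings of the counting are not given in the sources used here. Library totals were 13338338 to 27828376 counts, which sets the counting precision of low genes. Of 62702 lines, 3 broken ones of ANK2, a gene outside the respiratory chain, were left out.

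Groups were taken from the sample labels. Genes passing edgeR's filterByExpr were scaled by TMM and tested with edgeR 4.0.16's quasi-likelihood test (R 4.3.3, two-sided, Benjamini-Hochberg adjustment over all genes, threshold 0.05). All 86 members passed that filter. The test over lines summed the 2 ADAR siRNA libraries of each line and had line as a term, which leaves 3 residual degrees of freedom. The fit within lines used the 12 siRNA libraries in 8 groups, which leaves 4. NOP14 was compared with PCDH by the log2 ratio of CPM with a prior count of 2 and a fold of 1.5, for genes at 1 CPM or more in either library. Alternatives were DESeq2 1.42.0, other scalings and filters, a term for library number, and leaving out libraries or lines. Python 3.11.15, pandas 2.3.3, scipy 1.17.1 and matplotlib 3.10.9 made the tables and figures.

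On simulated data with 200 changed genes, the test over lines recovered 43% of genes changed 2-fold and 69% of those changed 4-fold (21680 genes, with 31 of 143 calls on unchanged genes). The test within a line recovered 8% and 43% (22737 genes, 25 of 76), that of the interaction 0% and 28% (62 of 90) and that of line 40% and 69% (20555 genes, 12 of 121). A share of the calls of each test was thus false in these simulations.

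Genes named were all mitochondrial members, the 3 nuclear members of each complex with the smallest p in each direction over the lines, the 5 smallest p in each other test, members called if 15 or fewer, the 8 largest NOP14 ratios each way at 5 CPM or more, the 3 highest and 2 lowest per length in each complex, and NDUFS5, UQCRH and ATP5MC1. The values of 1 gene that this rule names are not reported here. The members and the 15 gene lists were chosen with earlier results of these data known. The lists were complex II, subunits outside the naming rule, tissue isoforms, assembly factors of complexes I, III, IV and V, expression of mitochondrial DNA, regulators, mitochondrial ribosomal proteins, Krebs cycle, glycolysis, nuclear copies of mitochondrial genes, mitochondrial rRNA and cytosolic ribosomal proteins.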

Additional observations from a re-analysis of the deposited data

Results flagged for a closer look

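The mitochondrial sums of 3 complexes lay on opposite sides of the control in different lines, with both ADAR siRNA libraries of a line on the same side. For complex I the mean log2 ratio of summed CPM was 0.1943 in MDA-MB-231 and -0.0217 in BT-549. The BT-549 difference was slight, since the sums of its 3 siRNA libraries spanned only 18579 to 18918 CPM. For complex III it was 0.279 in MDA-MB-231, 0.0279 in BT-549 and 0.474 in AGS, against -0.2034 in NCI-H1395. For complex V it was 0.4124 in MDA-MB-231 and 0.3452 in AGS, against -0.3222 in NCI-H1395. The difference between lines in these sums was not tested, and each line has 1 control library. The gene-wise test of dependence on the line called 0 members, with 0 at an unadjusted p under 0.05. That test recovered 0% of genes changed 2-fold on simulated data, so its lack of calls does not show that the lines changed alike.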

How the results depend on the processing

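The count of members called over the 4 lines was 0 by edgeR, 1 (NDUFS5) without a count filter and 16 by DESeq2. All genes called there numbered 4, against 394 without a filter, 707 by DESeq2, 75 without MDA-MB-231, 14 and 0 with the first or second ADAR siRNA libraries alone, 1 with the libraries not summed and 0 with a minimum of 1 CPM, with protein-coding genes alone or without BT-549 or NCI-H1395. The nuclear median was -0.1195 with library totals in place of TMM, -0.1201 without a filter and -0.2352 with the first ADAR siRNA libraries alone. Library totals moved the median of all genes to 0.115. With library totals the mitochondrial median was 0.4086 in MDA-MB-231, the nuclear one -0.1599 in NCI-H1395 and -0.1276 in AGS, and the summed mitochondrial level of BT-549 44927.8 CPM. The AGS nuclear median was -0.2448 with scaling that left out mitochondrial genes and -0.2579 without a filter. Where the construction of an alternative does not show it, the cause was not tested.

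Leaving out 1 ADAR siRNA library at a time, the nuclear median within MDA-MB-231 ran from -0.3373 to 0.0012, in BT-549 from -0.2548 to -0.168, in NCI-H1395 from -0.3137 to -0.2534 and in AGS from -0.2569 to -0.2322. The mitochondrial medians ran from 0.2312 to 0.3131, -0.0095 to 0.0345, -0.2329 to -0.0137 and 0.1446 to 0.5297. The members called between lines ran from 76 to 80, with 48 to 54 in MDA-MB-231, 50 to 55 in BT-549, 31 to 32 in NCI-H1395 and 45 to 49 in AGS. These fits between lines kept the libraries unsummed, unlike the main fit. A difference from the main counts therefore cannot be put down to the library left out. The shares of all genes called in these fits are not reported here. With the control siRNA library in place of PCDH, 46 members differed by more than 1.5-fold from NOP14 (46.2% of 15247 genes did), 31 nuclear members were lower, 12 mitochondrial members were higher and their median was 0.8091. With library number as a replicate block, 0 members were called over the lines (2 of 21392 genes), with medians of -0.2017 and 0.0993. Between lines 79 members were called with that block, and the share of all genes called between lines there is not reported here. The difference between the second and first ADAR siRNA libraries correlated between lines at -0.05 to 0.197. Among BT-549, NCI-H1395 and AGS the values were 0.0858, 0.108 and 0.197. Whether libraries of the same number share an siRNA is not given in the labels, and an effect shared by a number was not tested. For the single genes named, 199 values kept direction and side of the threshold and 11 passed it. Low-count members such as NDUFA7 and NDUFA13 are limited by depth.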

Other observations

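Nuclear copies of mitochondrial genes resemble members in sequence, and whether reads were divided between them was not tested. Their levels differed between lines. MTATP6P1, a copy of MT-ATP6 on chromosome 1, was at 10.4 to 12.9 CPM in NCI-H1395 and at 205 to 341 CPM in the other lines. MTND1P23 was at 0 to 0.21 CPM in the MDA-MB-231 libraries and at 2.75 to 5.45 elsewhere, and MTCO2P12 and MTCO3P12 were also lowest in MDA-MB-231, at 0.09 to 0.36 and 0.27 to 0.74 CPM against 6.21 to 16.2 and 5.23 to 9.94. MTATP8P1, the copy of MT-ATP8, was at 0.21 CPM or less everywhere. Over the 4 lines the 6 copies tested had a median log2 change of 0.00 after ADAR siRNA, with 3 lower.

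Isoforms known from single tissues were scarce. COX7B2 was at 9.19 to 13.1 CPM in NCI-H1395, at 2.30 in the MDA-MB-231 control siRNA library and 0 in both ADAR siRNA libraries of that line, at 4.49 and 4.29 in its vector libraries and at 0 in BT-549 and AGS. COX7A1 reached 4.08 CPM in BT-549 and COX6B2 2.66 in AGS, while COX8C was at 0 and COX6A2 and COX4I2 were at or below 0.12 in every library. Of the 4 isoforms tested over the lines, 2 were lower (median 0.01). SDHC and SDHD of complex II separated the MDA-MB-231 siRNA libraries (22.1 to 30.5 and 20.9 to 27.7 CPM) from its vector libraries (74.7 to 79.5 and 75.8 to 78.3).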
